A study of Mus musculus with 23 samples.

Results

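The 10 genes described here, Tsc22d3, Nfkbia, Fkbp5, Sgk1, Zbtb16, Cdkn1a, Pdk4, Errfi1, Mt1 and Klf9, are widely used as readouts of glucocorticoid action. They were chosen by name and found through their Ensembl identifiers, and all 10 were present among the 18848 genes of the deposited table and among the 17256 tested genes, those averaging 10 normalised reads or more. The study sequenced messenger RNA from brains of C57BL/6J males, aged 17 postnatal days, with no brain region named. Wild-type mice (WT) were compared with mice heterozygous for a Grin2b mutation (HT), given in the series title as C456Y, and each genotype received vehicle or DCS, which commonly stands for D-cycloserine, a drug that acts on the NMDA receptor through its glycine site. Grin2b encodes the GluN2B subunit of that receptor, and the heterozygous mice keep 1 wild-type allele. The vehicle groups held 6 WT and 6 HT libraries and the DCS groups 5 WT and 6 HT libraries. The labels give no dose, route or interval before sampling, nor whether any mouse gave more than 1 library, so the p-values rest on spread among libraries, which may be technical.

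Corticosterone, the main glucocorticoid of mice, enters cells and binds the glucocorticoid receptor (Nr3c1) and the mineralocorticoid receptor (Nr3c2), which are held ready by Hsp90 and its co-chaperones. The loaded receptor moves to the nucleus and binds DNA elements built from the hexamer AGAACA and its reverse complement TGTTCT, and nearby genes are transcribed within hours. In the brain the response is spread over neurons, glia and vessels. Among its products, Fkbp5 feeds back by lowering the receptor's affinity for hormone, Tsc22d3 restrains NF-kB and AP-1, and Nfkbia holds NF-kB in the cytoplasm. The question here was whether these readouts differed with the Grin2b genotype or with DCS.

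Library totals after the authors' scaling lay between 32.3 M and 33.5 M reads, so total RNA per library cannot be compared. In these bulk libraries fewer cells of a type and less RNA per cell cannot be told apart. Markers of neurons, astrocytes, oligodendrocytes and microglia were all detected. HT DCS replicates 5 and 6 stood apart in a list of 7 hindbrain genes, with mean log2 levels of 4.42 and 4.63 against 5.20 to 6.63 in the other 21 libraries. The oligodendrocyte list of 10 genes averaged 13.64 ± 0.23 (log2, SD, n = 6) in HT DCS and 13.87 ± 0.11 (SD, n = 5) in WT DCS. The libraries carry label numbers whose meaning the labels do not give, and numbers 4 to 6 differed from numbers 1 to 3 in 1380 genes (8.0% of those tested) in a fit that kept the groups apart. Differences between groups are therefore also given within each set of numbers for the members named in a comparison of 2 groups.

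All 10 genes were expressed, over a wide range. On a scale of normalised reads per kilobase of merged exons, metallothionein 1 (Mt1), a zinc-binding and copper-binding protein, averaged 3012 over the 23 libraries, and the transcription factor Klf9 averaged 1630. Tsc22d3 (also called GILZ) followed at 500.2, then the kinase Sgk1 at 315 and the NF-kB inhibitor Nfkbia at 314. Errfi1, an inhibitor of the EGF receptor, averaged 265, the cell cycle inhibitor Cdkn1a 229.6, the transcription factor Zbtb16 142, Fkbp5 103 and the pyruvate dehydrogenase kinase Pdk4 45.7. The library ranges of Sgk1, Nfkbia, Errfi1 and Cdkn1a overlapped from each gene to the next, as did those of Zbtb16 and Fkbp5, so their order is not resolved. The ranges of the other neighbours in this order did not overlap. Merged exons count every annotated isoform, which lowers the per-kilobase value of genes with long alternative ends such as Fkbp5. For Mt1 the merged exons cover 1246 bases, the whole annotated span of the gene. Bases that are intron in a spliced isoform are then counted as exon, which lowers its value too.

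The genes lie on 9 chromosomes of GRCm38 (GENCODE M21): Tsc22d3 at chrX:140539528-140600659, Nfkbia at chr12:55489410-55492647, Fkbp5 at chr17:28399094-28517527, Zbtb16 at chr9:48654297-48836222 and Pdk4 at chr6:5483351-5496309 on the minus strand. Sgk1 at chr10:21882184-21999903, Cdkn1a at chr17:29090976-29100727, Errfi1 at chr4:150853919-150868892, Mt1 at chr8:94179082-94180327 and Klf9 at chr19:23141226-23168134 are on the plus strand. Promoter windows of 250 bases before an annotated start were read from RefSeq for GRCm38.p6 and matched 9 of the 10 genes. The hexamer AGAACA, searched on both strands, was found in 4 of their 18 windows, in 2 genes, Sgk1 and Tsc22d3. It was found in 16.1% of the 32851 windows of all genes. Sgk1 supplied 6 of the 18 windows and 3 of those with the hexamer, so the windows are not independent. The 1 window of Tsc22d3 with the hexamer, of 3, overlaps annotated exons for 137 of its 250 bases. A window of Sgk1 at chr10:21993640-21993889 (plus strand, with no annotated exon base) held 3 copies, and 2 of them formed a complete palindrome, AGAACA and TGTTCT separated by 3 bases, 189 to 175 bases before the start. That palindrome occurred in 3 windows of all genes, 0.00913%. For Mt1 the metal response element, TGCGCNC or TGCACNC, was also searched, since metals induce this gene too, and 1 copy of TGCACNC lay 23 to 17 bases before the start, a motif present in 10.4% of windows (12.5% for TGCGCNC). Among the other members, the window of Nfkbia also held 1 copy of TGCACNC. No AGAACA was found in the windows shown for Mt1 and Fkbp5. These windows are shown for Sgk1 because it holds the palindrome, for Mt1 because metals are known to induce it and for Fkbp5 because its level differed by label number, with matched motifs in capitals. The Mt1 window at chr8:94178839-94179081 leaves out the bases that overlap an annotated exon, and the Fkbp5 window is at chr17:28486150-28486399 on the minus strand.
Sgk1: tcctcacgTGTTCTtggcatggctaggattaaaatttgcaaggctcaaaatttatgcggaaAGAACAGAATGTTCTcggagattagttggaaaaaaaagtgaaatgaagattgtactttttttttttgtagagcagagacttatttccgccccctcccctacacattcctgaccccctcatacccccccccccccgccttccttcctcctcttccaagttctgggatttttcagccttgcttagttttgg
Mt1: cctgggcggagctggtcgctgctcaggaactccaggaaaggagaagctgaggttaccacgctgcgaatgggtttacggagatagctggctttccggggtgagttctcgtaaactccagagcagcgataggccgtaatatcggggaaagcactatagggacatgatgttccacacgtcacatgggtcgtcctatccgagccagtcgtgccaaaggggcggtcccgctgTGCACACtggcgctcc
Fkbp5: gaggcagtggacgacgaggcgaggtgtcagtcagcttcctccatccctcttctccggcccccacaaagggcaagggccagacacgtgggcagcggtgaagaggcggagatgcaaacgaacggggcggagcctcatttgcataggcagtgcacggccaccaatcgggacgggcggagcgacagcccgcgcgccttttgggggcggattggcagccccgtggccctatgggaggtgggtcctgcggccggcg

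**Figure D1:**
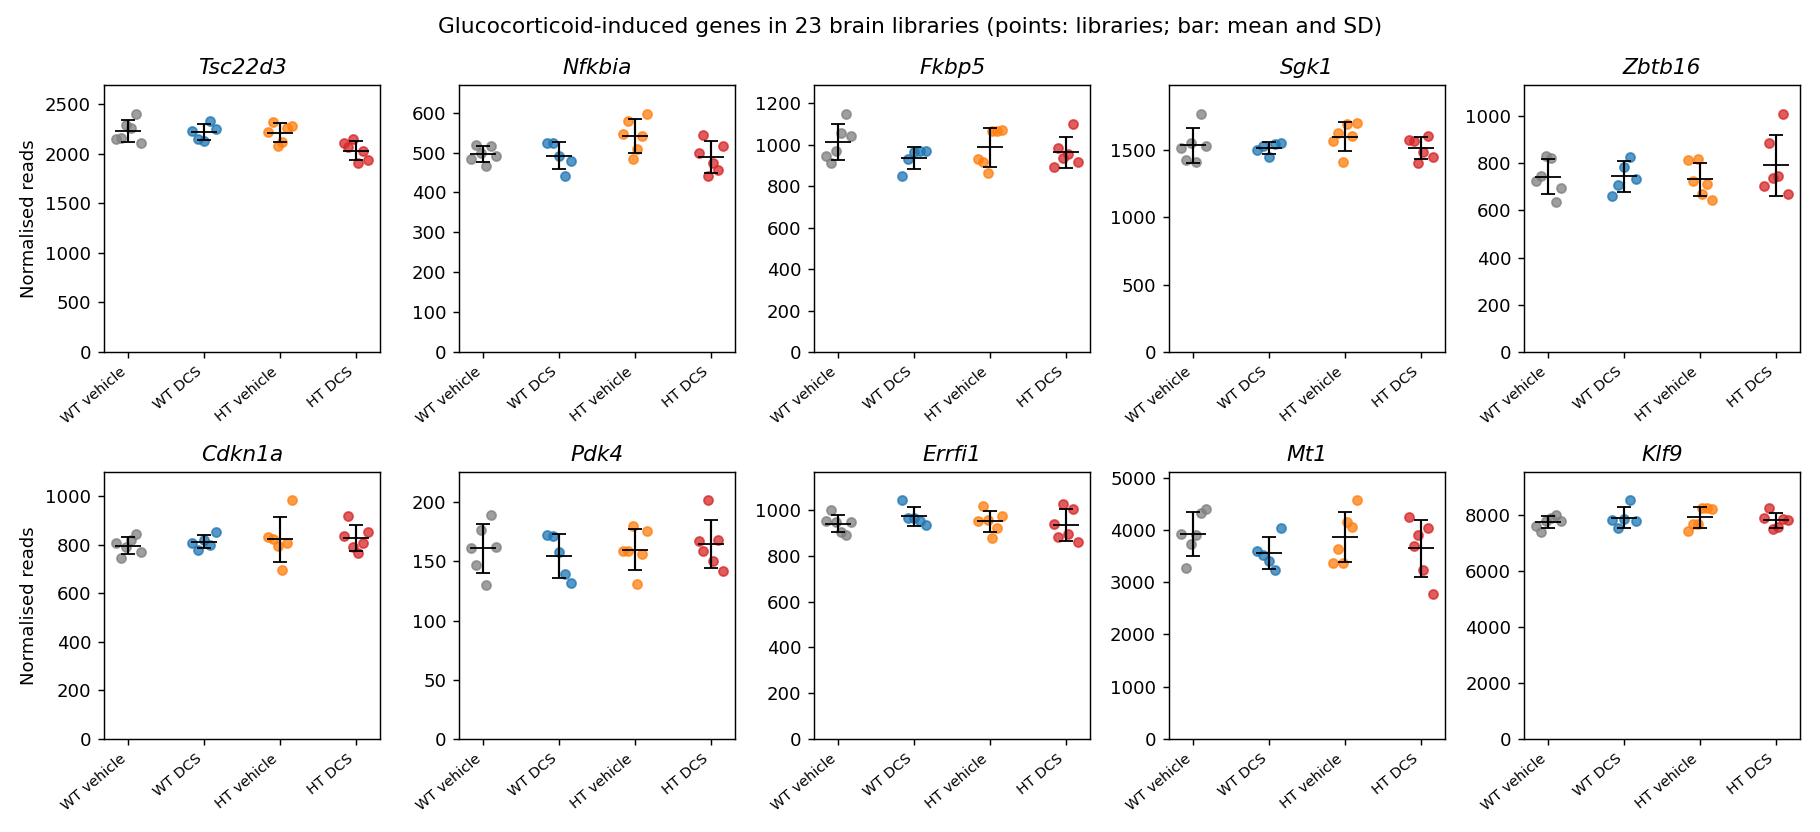
Normalised reads of the 10 genes (y axis, from 0) in the 23 libraries of 4 groups (x axis), each point a library, with the group mean and SD as a bar. Group ranges overlapped for every gene shown, and the lowest group mean of Tsc22d3 was 2032 in HT DCS.

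On vehicle, the heterozygous mutation went with little difference in these genes. None of the 10 passed an adjusted p of 0.05 between HT vehicle and WT vehicle, as none of the 17256 genes did (0.0%). At an unadjusted p under 0.05 there was 1 of the 10, against 4.22% of all genes, and 5 of the 10 had the higher mean in HT, against 49.7%. The gene was Nfkbia, which in WT vehicle ranged from 467 to 519 normalised reads with a median of 496, and in HT vehicle from 484 to 598 with a median of 543. Of the HT libraries 5 of 6 lay above the WT mean, and the groups overlapped. Its difference was 0.12 ± 0.06 (log2, SE) with an adjusted p of 0.999 (limma, Benjamini-Hochberg), and it was 0.09 within numbers 1 to 3 and 0.16 within numbers 4 to 6. Sgk1 differed by 0.06 ± 0.05 and Klf9 by 0.03 ± 0.03, each with an adjusted p of 0.999. Within numbers 1 to 3 and 4 to 6, Sgk1 differed by 0.03 and 0.09 and Klf9 by -0.0027 and 0.06. The 10 differences lay between -0.04 and 0.12 with a median of 0.00. All 10 microglial, 10 endothelial, 10 activity-induced and 8 meningeal markers had higher means in HT vehicle (medians 0.12, 0.07, 0.18 and 0.11). All 10 oligodendrocyte and 5 blood cell markers had lower means (medians -0.09 and -0.12). The remaining lists went both ways, some of them unevenly. Of 8 choroid plexus markers 7 had a higher mean (median 0.24), and 4 had an unadjusted p under 0.05. Of 8 pericyte and smooth muscle markers 7 were higher (median 0.18, 2 at an unadjusted p under 0.05). Of 7 hindbrain genes 5 were lower (median -0.45, 1 at an unadjusted p under 0.05). In all lists 0 markers passed after adjustment, and the part of the lists in the Nfkbia value was not tested.

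Under DCS, Tsc22d3 was the gene with the smallest p between genotypes. The gene, which encodes a leucine zipper protein, is a classical direct target of the glucocorticoid receptor. In WT DCS the 5 libraries had 2232, 2151, 2126, 2334 and 2249 normalised reads. In HT DCS they ranged from 1903 to 2147 with a median of 2048, and all 6 lay below the WT DCS mean, although the highest HT library lay above the lowest WT library. The difference of -0.13 ± 0.04 (log2, SE) had an adjusted p of 0.596 and a 95% interval of -0.21 to -0.04, so it did not pass. None of the 17256 genes passed (0.0%), 1 of the 10 had an unadjusted p under 0.05 against 7.55% of all genes, and 5 of 10 had a higher mean in HT DCS against 49.8%. Errfi1 differed by -0.06 ± 0.05 (adjusted p = 0.806) and Zbtb16 by 0.08 ± 0.09 (adjusted p = 0.870), with 95% intervals of -0.16 to 0.04 and -0.11 to 0.27. Within numbers 1 to 3 and 4 to 6, Errfi1 differed by -0.06 and -0.04 and Zbtb16 by 0.10 and 0.03. Across the 10 genes the median was 0.01.

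DCS in wild-type mice went with no member at an unadjusted p under 0.05, against 2.88% of all genes, and 0.0% of genes passed after adjustment. Of the 10 genes 4 had a higher mean in WT DCS, against 50.3%. Fkbp5 had 846, 931, 966, 969 and 967 normalised reads in the 5 WT DCS libraries, and 913 to 1149 with a median of 1004 in WT vehicle. All 5 treated libraries lay below the vehicle mean, and the groups overlapped. Its difference was -0.11 ± 0.07 (log2, SE; adjusted p = 1.0), with -0.04 within numbers 1 to 3 and -0.16 within numbers 4 to 6. Mt1 differed by -0.14 ± 0.10 and Errfi1 by 0.05 ± 0.05, each with an adjusted p of 1.0. Within numbers 1 to 3 and 4 to 6, Mt1 differed by -0.05 and -0.22 and Errfi1 by 0.04 and 0.05.

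Heterozygous mice on DCS had the lowest group mean of Tsc22d3. HT vehicle ranged from 2075 to 2317 normalised reads with a median of 2242, and all 6 HT DCS libraries lay below its mean, again with overlap of the ranges. The difference was -0.12 ± 0.04 (log2, SE; adjusted p = 0.970). Nfkbia, which was lower in 5 of 6 treated libraries, had a median of 486 in HT DCS (441 to 545) and differed by -0.15 ± 0.06 (adjusted p = 0.973). Sgk1 differed by -0.08 ± 0.05 (adjusted p = 0.973). Within numbers 1 to 3 and 4 to 6, Nfkbia differed by -0.12 and -0.19 and Sgk1 by -0.02 and -0.14. Zbtb16, at 0.10 ± 0.09 over all libraries (adjusted p = 0.974), differed by -0.03 and 0.23. Of the genes, 2 of the 10 had an unadjusted p under 0.05, against 4.8% of all genes, 3 of 10 had a higher mean in HT DCS against 49.3%, and 0.0% passed after adjustment. This comparison shares the HT DCS libraries with the one between genotypes under DCS, so the low Tsc22d3 of these 6 libraries enters both.

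The Tsc22d3 difference was uneven over the HT DCS libraries. Numbers 1 to 3 had 2108, 2072 and 2147 normalised reads and numbers 4 to 6 had 1903, 2024 and 1937, so the 2 sets did not overlap. The share of all genes that separate so was not computed. Within numbers 1 to 3 the difference was -0.06 from HT vehicle and -0.04 from WT DCS. Within numbers 4 to 6 it was -0.19 and -0.23. Whether the difference itself depended on the number was not tested. Without HT DCS replicates 5 and 6, the pair with low hindbrain levels, it was -0.11 from either group. Between HT DCS and WT DCS the oligodendrocyte list had 10 of 10 genes with a lower mean (median -0.24), 9 of them at an unadjusted p under 0.05 and 0 passing after adjustment. Against HT vehicle it had 10 of 10 lower (median -0.14, 0 passing). Also all lower were 8 of 8 choroid plexus markers (median -0.21), 10 of 10 activity-induced early genes (median -0.34) and 5 of 5 blood cell markers (median -0.13). Of the endothelial markers 9 of 10 were lower (median -0.03), and of the cerebellar ones 7 of 8 (median -0.08). In each of these lists 0 passed. The part of these lists in the Tsc22d3 result was not tested. The summed oligodendrocyte markers ranged from 324546 to 502661 normalised reads in HT DCS, from 390532 to 493114 in HT vehicle and from 442634 to 520391 in WT DCS, and none was at 0.

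The interaction of genotype and DCS asks whether DCS went with a different change in HT than in WT. For Tsc22d3 it was -0.12 ± 0.06 (log2, SE; adjusted p = 0.984), for Nfkbia -0.14 ± 0.09 and for Errfi1 -0.08 ± 0.07, both with an adjusted p of 0.984. With 1 of 10 at an unadjusted p under 0.05 against 4.38% of all genes, 4 of 10 positive against 49.3%, and 0.0% passing after adjustment, the genes as a group gave no call. The 95% intervals of the 10 interactions reached at most 0.40 in size on either side, so larger interactions were outside the intervals of each gene.

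**Figure D2:**
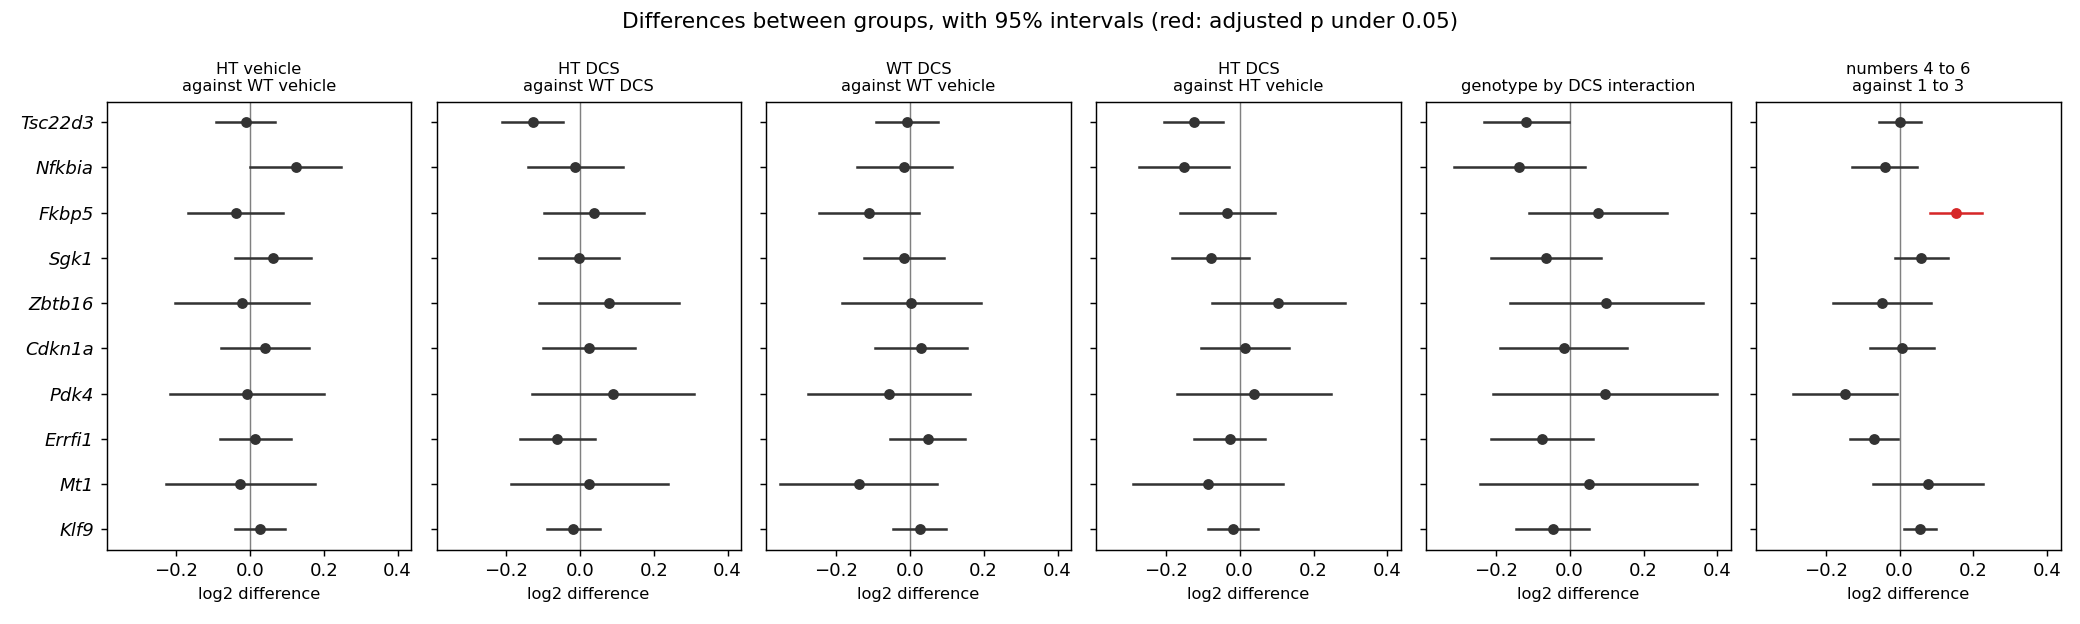
Log2 differences of the 10 genes (x axis) for the 5 comparisons of the design and for the label numbers, with points as estimates and lines as 95% intervals from limma. Fkbp5 in the comparison of label numbers, at 0.15, is drawn in red as the estimate with an adjusted p under 0.05.

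The label numbers separated Fkbp5 more clearly than genotype or DCS did. This comparison was added after the data had been seen. Such a contrast was not particular to Fkbp5. By label number 8.0% of all genes were called, against 0.0% in each comparison of genotype or DCS. In WT vehicle, numbers 1 to 3 had 944, 913 and 967 normalised reads and numbers 4 to 6 had 1054, 1149 and 1040. In HT vehicle the values were 931, 917 and 864 against 1064, 1067 and 1072. The sets did not overlap in either vehicle group. For no group was the share of all genes whose sets separate in this way computed. In HT DCS they overlapped, at 890 to 981 and 914 to 1097, while in WT DCS the lowest of numbers 4 and 5, 967, lay just above the highest of numbers 1 to 3, 966.

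Over all groups Fkbp5 was higher in numbers 4 to 6 by 0.15 ± 0.03 (log2, SE; adjusted p = 0.0071). It was the 1 member called among the 10, against 8.0% of all genes, 4 of 10 had an unadjusted p under 0.05 against 22.5%, and 6 of 10 had a higher mean against 49.9%. Klf9, a repressor induced by glucocorticoids and thyroid hormone, differed by 0.05 ± 0.02 (adjusted p = 0.114) and Errfi1 by -0.07 ± 0.03 (adjusted p = 0.187). In HT vehicle the Klf9 values of numbers 4 to 6, 8254, 8249 and 8233, lay above the 7430 to 7689 of numbers 1 to 3. The Klf9 sets overlapped in WT vehicle, at 7406 to 7805 and 7783 to 8024. They also overlapped in WT DCS, at 7554 to 7857 and 7792 to 8533. In HT DCS the Klf9 means of numbers 1 to 3 and 4 to 6 were 7885 and 7744, the other way round. Mt1 in HT vehicle was at 3370 to 3637 in numbers 1 to 3 and at 4045 to 4564 in numbers 4 to 6, but in HT DCS the means were 3945 and 3350. Its difference between HT DCS and HT vehicle was accordingly 0.19 within numbers 1 to 3 and -0.36 within numbers 4 to 6, and the value over all libraries, -0.09 ± 0.10, had an adjusted p of 0.974. All 10 oligodendrocyte markers passed the adjusted threshold as lower in numbers 4 to 6 (median -0.21). Of 5 blood cell markers 5 had a lower mean and 4 passed (median -0.51). All 10 microglial and 10 activity-induced markers also had lower means (medians -0.23 and -0.16, 0 passing). Of 8 pericyte and smooth muscle markers 7 had a lower mean and 3 passed. Of 8 choroid plexus markers 7 had a lower mean and 1 passed. The part of these lists in the Fkbp5 result was not tested.

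**Figure D3:**
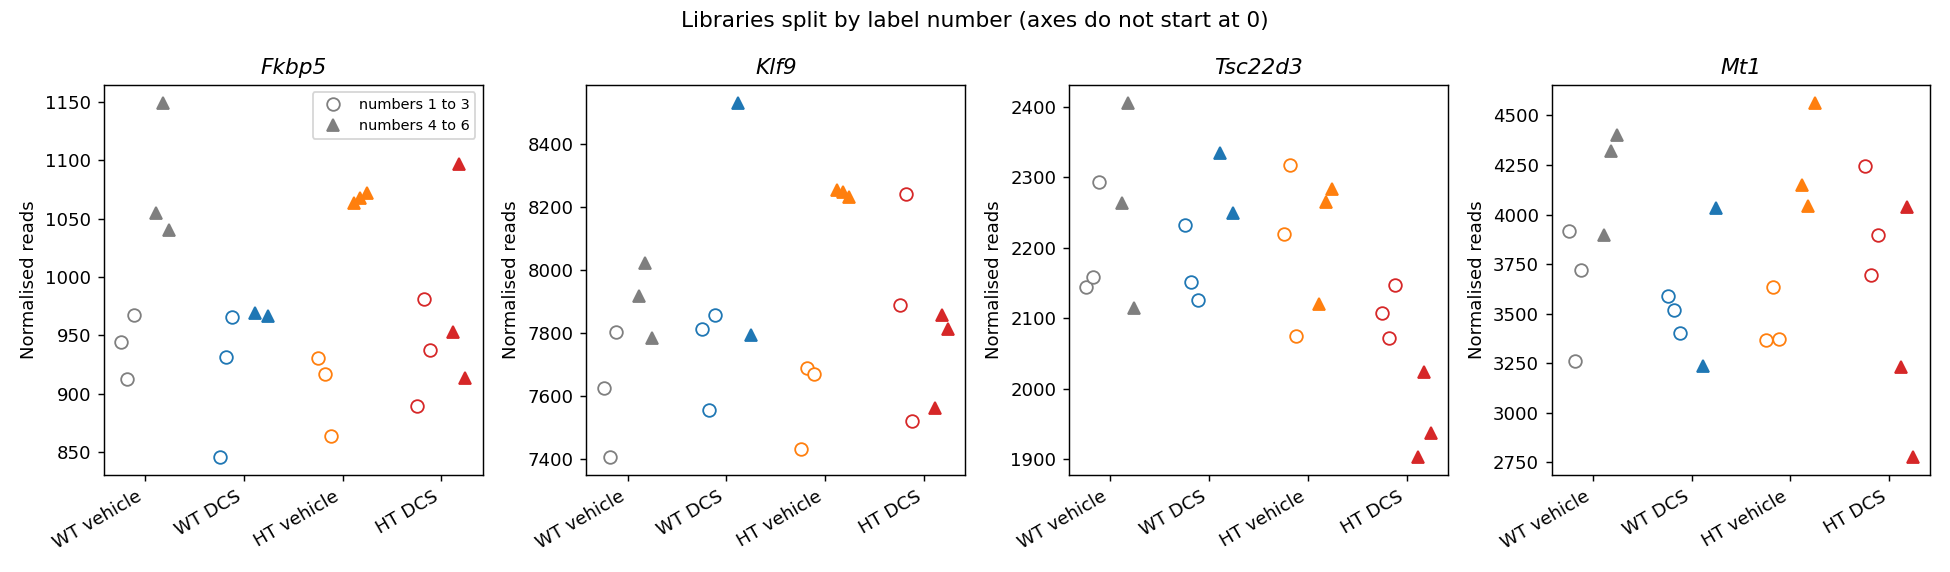
Normalised reads of Fkbp5, Klf9, Tsc22d3 and Mt1 (y axes, not from 0) by group (x axis), with label numbers 1 to 3 as open circles and 4 to 6 as filled triangles, each point a library. The triangles lie above the circles for Fkbp5 in both vehicle groups and below them for Tsc22d3 in HT DCS.

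A further list of 30 genes compiled as glucocorticoid-induced, of which 29 were tested, gave no call in any comparison of genotype or DCS. Between the vehicle groups 20 of 29 had a higher mean in HT, against 49.7% of all genes (median 0.05). Ddit4, an mTOR inhibitor, was at 0.12 ± 0.05 (log2, SE) and the transcription factor Cebpd at 0.39 ± 0.16. Under DCS Txnip, which binds thioredoxin, was 0.38 ± 0.15 and Hif3a 0.40 ± 0.16 from WT. Each had p under 0.05 before adjustment, with adjusted p of 0.621 and 0.641. They were 2 of 29 with such a p, against 7.55% of all genes. In WT mice the smallest p belonged to Fam107a at -0.09 ± 0.06 and Gadd45g at 0.11 ± 0.08 on DCS. In HT mice 7 of 29 had a higher mean on DCS, against 49.3% of all genes (median -0.07). Ddit4 was at -0.12 ± 0.05 and Hif3a at 0.33 ± 0.16 (adjusted p = 0.973 each). Ddit4 had an interaction of -0.17 ± 0.07 and Txnip one of 0.45 ± 0.20, both with an adjusted p of 0.984. Ddit4, like Nfkbia, was thus at its highest mean in HT vehicle.

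By label number this list gave 3 higher and 2 lower calls of 29, beside 8.0% of all genes called. Sult1a1, a sulfotransferase, rose by 0.49 ± 0.07 (log2, SE; adjusted p = 1.35e-04), from 224 to 326 normalised reads in WT vehicle and from 219 to 327 in HT vehicle. The lipid transporter Mfsd2a rose by 0.17 ± 0.05 and Fam107a by 0.13 ± 0.04. The clock repressor Nr1d1 fell by 0.22 and the glycerol-3-phosphate dehydrogenase Gpd1, which oligodendrocytes express strongly, fell by 0.24 (adjusted p = 2.98e-04 for each). The direction in which glucocorticoids move each listed gene was not tested here, so these falls are not read as a loss of induction.

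The receptors themselves did not differ beyond their spread in any comparison of genotype or DCS. On vehicle, Nr3c1 averaged 2743 ± 68 normalised reads (SD, n = 6) in WT and 2740 ± 161 (n = 6) in HT, and on DCS 2643 ± 179 (n = 5) and 2679 ± 119 (n = 6). Nr3c2 averaged 1161 ± 52 and 1168 ± 39.7 on vehicle and 1178 ± 83 and 1189 ± 62 on DCS, with the same numbers of libraries. Their differences in the comparisons of genotype and DCS were between -0.06 and 0.03 on the log2 scale. By label number neither receptor was called. The Nr3c1 means of numbers 1 to 3 and 4 to 6 were 2793 and 2692 in WT vehicle and 2705 and 2550 in WT DCS. They were 2850 and 2630 in HT vehicle, but 2637 and 2721 in HT DCS.

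Of the 14 tested genes for hormone reception and supply, none passed in the comparisons of genotype or DCS. The steroid receptor coactivators Ncoa2 and Ncoa1 had the smallest p between vehicle groups, at 0.06 ± 0.04 and 0.05 ± 0.04 (log2, SE). In WT mice Hsp90ab1, an Hsp90 isoform, was 0.04 ± 0.03 from vehicle on DCS. Stip1, which links Hsp70 to Hsp90, and Fkbp4, the Hsp90 co-chaperone that promotes receptor transport, differed by -0.12 ± 0.05 and -0.08 ± 0.04 between HT DCS and WT DCS (adjusted p = 0.641 and 0.662). From HT vehicle they differed by -0.06 ± 0.05 and -0.04 ± 0.04, with interactions of -0.11 ± 0.07 and -0.07 ± 0.05. By label number both fell, Stip1 by 0.12 (adjusted p = 0.0031) and Fkbp4 by 0.08 (adjusted p = 0.0206), the 2 calls among 14, beside 8.0% of all genes.

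Of the 7 tested genes of the stress axis, none passed in the comparisons of genotype or DCS. Crhr1 and Crhr2, receptors of corticotropin-releasing hormone, were at -0.05 ± 0.05 and 0.17 ± 0.18 between vehicle groups (log2, SE). Crhr2 and Pomc, the precursor of ACTH, were at 0.26 ± 0.19 and 0.34 ± 0.19 on DCS in WT and at -0.36 ± 0.19 and -0.34 ± 0.19 between genotypes under DCS. Crhr2 had an interaction of -0.54 ± 0.26 (adjusted p = 0.984) and Pomc one of -0.51 ± 0.27. The 8 choroid plexus markers, epithelial genes of the ventricles, had medians of the same sign as Crhr2: 0.24 between vehicle groups, 0.17 on DCS in WT, -0.14 between genotypes under DCS, -0.21 on DCS in HT and -0.35 for the interaction, where 7 of 8 were negative, 4 had an unadjusted p under 0.05 and 0 passed. Their summed level ranged from 17639 to 21587 normalised reads in WT vehicle, 16644 to 28071 in WT DCS, 17780 to 24171 in HT vehicle and 14548 to 22541 in HT DCS, none was at 0, and their part in the Crhr2 values was not tested. In HT mice DCS went with -0.21 ± 0.11 in Crh, the releasing hormone itself, and -0.28 ± 0.18 in Crhr2. Crhr1 fell by 0.11 by label number (adjusted p = 0.0067), the 1 call among 7, beside 8.0% of all genes.

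The spread of the genes between libraries of a group differed strongly. Mt1 had a within-group SD of 0.18 (log2), larger than in 98.6% of the 3416 genes within 2-fold of its mean, and in HT DCS it ranged from 2777 to 4245 normalised reads. Zbtb16 had 0.17, larger than in 90.5% of its comparable genes, with replicate 5 of HT DCS at 1010 and the other 5 between 668 and 883. Tsc22d3 had 0.07, larger than in 34.0%, and Klf9 0.06, larger than in 37.1%. Metallothionein genes share sequence, so reads of Mt1 and its neighbour Mt2 may be exchanged in the authors' counting.

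Whether the genes moved together from library to library was examined on deviations from group means over the 23 libraries. None of the 45 pairs passed an adjusted p of 0.05. The largest Pearson r was 0.63 between Fkbp5 and Sgk1 (Spearman rho 0.53, permutation p = 0.0038 and 0.0207, adjusted p = 0.0949 and 0.155), and it was 0.48 without the 2 libraries farthest from the median. Within numbers 1 to 3 it was 0.27 and within numbers 4 to 6 0.74. Fkbp5 and Klf9 had r = 0.62 and rho = 0.63 (permutation p = 0.00493 and 0.00531, adjusted p = 0.0949 and 0.0924), 0.64 without 2 libraries, but 0.19 and 0.29 within the number sets.

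Sgk1 and Mt1 had r = 0.59 and rho = 0.65 (permutation p = 0.00633 and 0.0033, adjusted p = 0.0949 and 0.0924), with 0.56 without 2 libraries and 0.50 and 0.55 within the sets. This was the pair whose value changed least by label number among the 5 named. Pdk4 and Errfi1 had r = 0.56 and rho = 0.58 (permutation p = 0.00952 and 0.00677, adjusted p = 0.101 and 0.0924), with 0.46 without 2 libraries and 0.41 and 0.54 within the sets. Fkbp5 and Mt1 had r = 0.55 and rho = 0.53 (permutation p = 0.0135 and 0.0191, adjusted p = 0.101 and 0.155), with 0.49 without 2 libraries, -0.20 within numbers 1 to 3 and 0.72 within numbers 4 to 6. The most negative pair, Errfi1 and Klf9, had r = -0.45 with an adjusted p of 0.199.

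**Figure D4:**
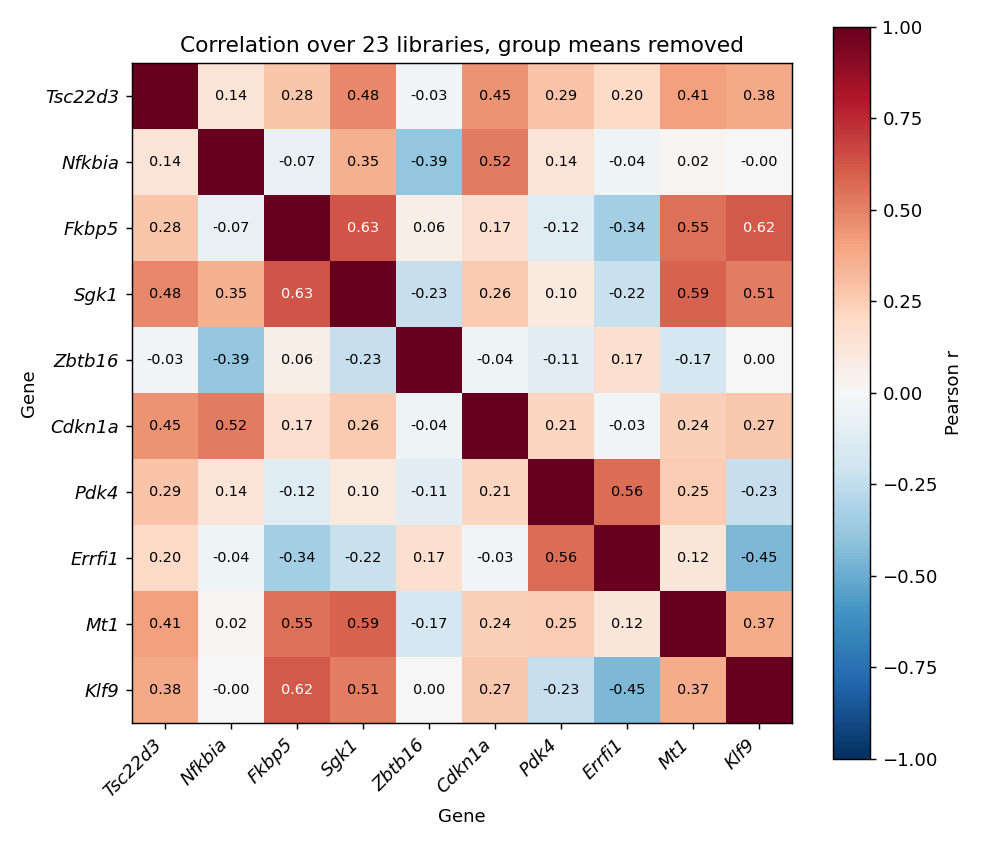
Pearson r between the 10 genes (both axes) over 23 libraries after removal of group means, with each value printed and coloured from -1 (blue) to 1 (red). The highest values are 0.63 for Fkbp5 and Sgk1, 0.62 for Fkbp5 and Klf9 and 0.59 for Sgk1 and Mt1, and none of the 45 pairs passed the adjusted threshold.

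Among all tested genes, those with a pattern most like Fkbp5 were Inpp5k (r = 0.86), Sult1a1 (0.85), Igfbp3 (0.81), Zfp46 (0.80) and Miga1 (0.80). With the label number also removed, the values were 0.71, 0.64, 0.59, 0.50 and 0.60. An r of at least 0.5 with Fkbp5 was found for 778 genes, 4.51% of those tested, and Sgk1, Klf9 and Mt1 were among them, at the top 1.04%, 1.33% and 2.75%. The genes most like Tsc22d3 were Kif19a (0.73), the serotonin receptor Htr7 (0.72), Mob1b (0.66), Otog (0.65) and Thsd1 (0.64). These changed little when the label number was removed (0.75, 0.72, 0.69, 0.65 and 0.66). Only 136 genes, 0.788%, reached 0.5 with Tsc22d3, and none of the other 9 members did, with Sgk1 the nearest at 0.48.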

How the data were processed

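Per the labels' protocols, a TruSeq stranded kit for mRNA was used to make the brain libraries. The authors deposited 1 table of 18848 genes and 23 libraries, a signal of read counts scaled between libraries, with decimals. Per the submitters' processing notes, Salmon 1.1.0, R 3.6.2, DESeq2 1.26.0 and GRCm38 were used, with no role or order; no source used here gives the authors' low-expression filter or whether strand was used. Depth before scaling is unknown, and genes that share sequence can exchange reads.

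From these values, limma 3.58.1 (R 4.3.3) was run on log2(value + 1), which understates the change of low genes, with 1 coefficient per group over all libraries, a mean trend, and robust moderation. The 17256 genes averaging 10 or more were tested, with p-values adjusted by Benjamini-Hochberg and called under 0.05. Tests are two-sided. The script was tested on simulated data. Correlations used 100000 permutations within groups. Replicate numbers were taken from the titles, where the fifth WT DCS library carries number 6 in its description, and samples were grouped by title. Coordinates are from GENCODE M21 and promoters from RefSeq.

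The members and gene lists were chosen with earlier results of these data known. Named were all members, the 3 with the smallest p per comparison with full statistics, for the 3 pathway lists every call and the 2 smallest p, Nr3c1 and Nr3c2, the 5 genes most like Fkbp5 and Tsc22d3, and the 5 strongest pairs; values by label number and the promoters shown were picked with values in view. Hsd11b2 was not analysed here, and Lcn2, Ucn and Ucn3 were under the filter. Alternatives were another pseudocount, filter, scaling and model, and each library left out.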

Additional observations from a re-analysis of the deposited data

Results flagged for a closer look

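Of the 40 sets of 1 gene in 1 group, 1 held a library far from the others by Dixon's criterion, where chance gives about 1 in 20. Errfi1 had 1044.5 normalised reads in WT DCS replicate 1, and the nearest of the other 4 libraries had 967.6, a gap of 0.72 of the group's range.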

How the results depend on the processing

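The 18 named member results were recomputed under up to 35 alternatives, of which leaving out HT DCS replicates 5 and 6 and all those of the label-number comparison were chosen after seeing the data. All 615 values kept their direction, which is a weak check, since most alternatives only left out 1 library or changed a setting. Values within each set of numbers were not among them. There Klf9 between HT vehicle and WT vehicle changed sign, at -0.0027 and 0.06. No member passed in a comparison of genotype or DCS under any of them. Tsc22d3 between HT DCS and WT DCS ranged from -0.14 to -0.11 (adjusted p 0.221 to 0.998), and between HT DCS and HT vehicle from -0.14 to -0.11 (adjusted p 0.480 to 1.0). Fkbp5 by label number ranged from 0.14 to 0.17 with an adjusted p of 0.0034 to 0.0166, so it passed in each. Without HT DCS replicate 2, Klf9 passed too (0.07, adjusted p = 0.0382, range 0.0382 to 0.233), which made 2 members called by label number, against 1 otherwise. Genes called between HT DCS and WT DCS numbered 0 to 1 when each library was left out (1 without HT vehicle replicate 6) and between HT DCS and HT vehicle 0 to 1 (1 without HT vehicle replicate 1 or HT DCS replicate 4). Correlated pairs numbered 0 to 2 when each library was left out, with 1 without WT vehicle replicate 4, WT vehicle replicate 5 or HT DCS replicate 3 and 2 without HT DCS replicate 1. With the replicate block 1 pair passed. Deviations of libraries with the same number in 2 groups had a mean correlation of 0.0267 over 33 pairs. For the 165 pairs of different numbers the mean was -0.0053. Of the 33 pairs, 5 had a correlation over 0.1. Of the 23 libraries, 7 correlated best with their own number, or 8 by the description numbers. How many would do so by chance was not computed. The numbers were not used as pairs in the main fit, and the replicate block changed no other call. Depth before scaling is unknown. In the 4 comparisons of 2 groups the 95% intervals of the members were 0.07 to 0.22 to either side of the estimate.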

Other observations

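The deviations of the 10 genes were compared with the mean levels of 8 marker lists over the 23 libraries, 80 relations in all, and none passed an adjusted p of 0.05. Klf9 was lower where 10 microglial markers were higher (r = -0.63, rho = -0.63, permutation p = 0.00405 and 0.00341, adjusted p = 0.324 and 0.178), with r = -0.54 without the 2 farthest libraries and -0.54 with the label number removed. Errfi1 had the opposite sign with the same list (r = 0.53, rho = 0.55, permutation p = 0.0153 and 0.0140, adjusted p = 0.447 and 0.374), with 0.56 without 2 libraries and 0.41 with the label number removed. Fkbp5 and 10 oligodendrocyte markers had r = -0.41 and rho = -0.59 (permutation p = 0.0598 and 0.00445, adjusted p = 0.598 and 0.178), but r = 0.38 once the label number was removed.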
